A study of Homo sapiens with 10 samples.

Results

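The genes described here encode splicing factors and RNA helicases. They are the 85 genes, of 5000 named in 7 lists of N6-methyladenosine (m6A) peaks, whose names begin with SRSF, HNRNP, RBM, SF3A, SF3B, PRPF, U2AF, SNRP, DDX or DHX, leaving out RBM15 and RBM15B. The families were picked by the start of the name, but with earlier results of these data known. To enter, a gene also needed a called peak in some list. There were 7 SRSF, 18 HNRNP, 16 RBM, 7 SF3A, SF3B or U2AF, 4 PRPF, 5 SNRP, 21 DDX and 7 DHX genes. A gene of these families that has no peak in any list, such as HNRNPC and U2AF1, is not among the 85. One DDX gene on the Y chromosome stays in every count and is not described, which leaves 84 described genes.

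The study used V16A, a castration-resistant prostate cancer cell line, and pulled down m6A-carrying fragments of total RNA with an antibody (MeRIP) before sequencing. The pulled-down libraries came from V16A cells in hypoxia (2 libraries), from V16A cells labelled EU 40min (1 library) and from V16A cells in normoxia (2 libraries), each beside an input library that was not used here. The labels give no oxygen level, no length of hypoxia, no other agent or genetic change, and no oxygen condition for EU 40min; EU is read here as 5-ethynyl uridine, a nucleoside that marks newly made RNA. Nothing in the labels says that replicates came from separate cultures, so the p-values below weigh conditions only against a spread among libraries that may be technical.

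m6A is placed on RNA mostly while it is being made, within a short sequence context that contains GGAC among other forms, and is typically dense in long exons and around stop codons. SR proteins (SRSF) and heterogeneous nuclear ribonucleoproteins (HNRNP) bind exons and introns and steer splice site choice, often with opposing effects. SF3A and SF3B are parts of the U2 small nuclear ribonucleoprotein, U2AF reads the end of the intron, SNRP genes encode core and particle-specific proteins of the spliceosome, and DDX and DHX proteins are DEAD-box and DEAH-box helicases that remodel RNA. Transcripts of many splicing factors are themselves alternatively spliced, and several SR and hnRNP proteins control their own RNA in this way.

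Each list gives peaks with a position, a gene name, 1 or more blocks and a p-value deposited by the authors. A peak with several blocks skips sequence between them. The hypoxia libraries had 2879 and 6621 peaks, the EU 40min library 5044, and the normoxia libraries 212 and 1563; a further list for each condition held 7669 peaks for hypoxia and 2285 for normoxia. Each normoxia list is shorter than each hypoxia list, and normoxia replicate 1 is the shortest. List length therefore moves with the condition in every comparison below, also where normoxia replicate 1 is left out. The part of list length in the results was tested only by shortening the lists. Read depth is unknown, and a missing peak is a missing entry, not a measured absence of m6A. In bulk RNA, fewer cells of a type and less RNA per cell cannot be told apart.

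The labelled cell type was checked against 10 prostate and luminal epithelial markers. Peaks were listed for 2 and 4 of them in the hypoxia libraries, for 8 in EU 40min and for 1 and 5 in the normoxia libraries. FOXA1, a pioneer transcription factor of luminal cells, was listed in all 5 libraries, while KRT8 and KRT18, keratins of luminal cells, were in no list. Of 16 T and NK cell lineage markers, the hypoxia libraries listed peaks for 12 and 14, EU 40min for 13, and the normoxia libraries for 6 and 0. CD3D and CD3E, which encode parts of the T cell receptor complex, had peaks in both hypoxia libraries and EU 40min and in neither normoxia library, while CD2, TRAC, GZMA, GZMB, NKG7 and GNLY, other genes of these lineages, had peaks in normoxia replicate 1. More markers were listed in each hypoxia library than in either normoxia library, as for the splicing genes, but within normoxia the order was opposite, with 6 and 0 markers and 1 and 18 splicing genes. The part of these markers in the results below was not tested.

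A RefSeq start window was at hand for 76 of the 85 genes, and in 15 of them (19.7%) a peak of some list covered part of the first 30 transcribed bases, beside 10.7% of all 3751 genes with a window. In the hypoxia libraries this held for 3 of 31 (9.68%) and 6 of 42 (14.3%) splicing genes with a peak and a window, beside 7.51% and 13% of all such genes, so these shares lie near the background. It held for 11 of 47 (23.4%) in the hypoxia condition list, beside 11.8%, and for 3 of 28 (10.7%) in EU 40min, beside 3.91%. In the normoxia libraries it held for 0 of 1 and 0 of 17, beside 8.41% and 2.07%, and in the normoxia condition list for 0 of 12, beside 4.19%. The 3 genes covered in EU 40min were each also covered in a hypoxia list, and their windows are shown with that of SF3A3, whose covered bases hold a GGAC. The sequences are from RefSeq (GRCh38.p14), on the transcribed minus strand, 80 bases before to 30 bases after the start, and capitals mark bases covered by such a peak in every list that had one.
RBMX, chrX:136880696-136880805: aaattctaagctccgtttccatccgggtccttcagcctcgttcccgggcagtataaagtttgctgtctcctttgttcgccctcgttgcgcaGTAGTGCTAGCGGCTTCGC
HNRNPA2B1, chr7:26200717-26200826: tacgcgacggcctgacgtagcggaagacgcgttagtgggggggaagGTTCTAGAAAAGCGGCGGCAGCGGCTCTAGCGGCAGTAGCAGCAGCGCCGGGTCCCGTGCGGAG
RBM19, chr12:113966296-113966405: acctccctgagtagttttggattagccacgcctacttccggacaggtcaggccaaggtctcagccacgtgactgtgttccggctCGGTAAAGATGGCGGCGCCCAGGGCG
SF3A3, chr1:37989993-37990102: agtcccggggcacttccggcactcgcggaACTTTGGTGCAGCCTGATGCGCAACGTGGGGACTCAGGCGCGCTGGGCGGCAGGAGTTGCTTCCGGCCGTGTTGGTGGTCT

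The letters GGAC were searched on the transcribed strand only and occurred in 33.8% of 35116 RefSeq windows of this length. Among the 4 windows, those of RBM19 and SF3A3 held it and those of RBMX and HNRNPA2B1 did not. SF3A3 was shown because of its GGAC, so the 4 windows cannot be set against that share. In all, 7 windows were covered in 2 or more lists. Of the others, those of DDX24 and HNRNPK held GGAC and that of HNRNPA3 did not. Only in SF3A3, of the 7, did it fall within covered bases. In RBMX, which encodes an RNA-binding protein related to hnRNPs, the covering peak had 2 blocks in hypoxia replicate 2 and in EU 40min and ended at the same downstream base, 136879422, in both.

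In hypoxia, 32 and 50 splicing factor and helicase genes carried at least 1 peak, against 1 and 18 in normoxia. The 2 hypoxia libraries lay above both normoxia libraries, with a fold of 9.43 between the geometric means (log2 5.32 ± 0.46 in hypoxia and 2.08 ± 2.95 in normoxia, SD, n = 2 each; exact two-sided permutation p = 0.333, the smallest that 2 libraries against 2 can give). Leaving out normoxia replicate 1 took the log2 difference of 3.24 to 1.15. The condition lists held 54 of the genes for hypoxia and 13 for normoxia, and EU 40min held 31. These counts follow list length, so the share of all genes with a peak was also taken. The 85 genes made up 2.54% (exact 95% binomial interval 1.75 to 3.57) and 2.32% (1.73 to 3.05) of genes with a peak in the hypoxia libraries, against 0.719% (0.0182 to 3.94) and 2.01% (1.19 to 3.15) in the normoxia libraries. The intervals of all 4 libraries overlap, and the difference of 1.07 percentage points had an exact permutation p of 0.333 and was 0.427 without normoxia replicate 1. The share was 1.30% (0.883 to 1.84) in EU 40min. With each library shortened to its 212 peaks of smallest p, the shares were 3.15% and 2.97% in hypoxia, against 0.719% and 4.29% in normoxia, and the groups overlapped.

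**Figure D1:**
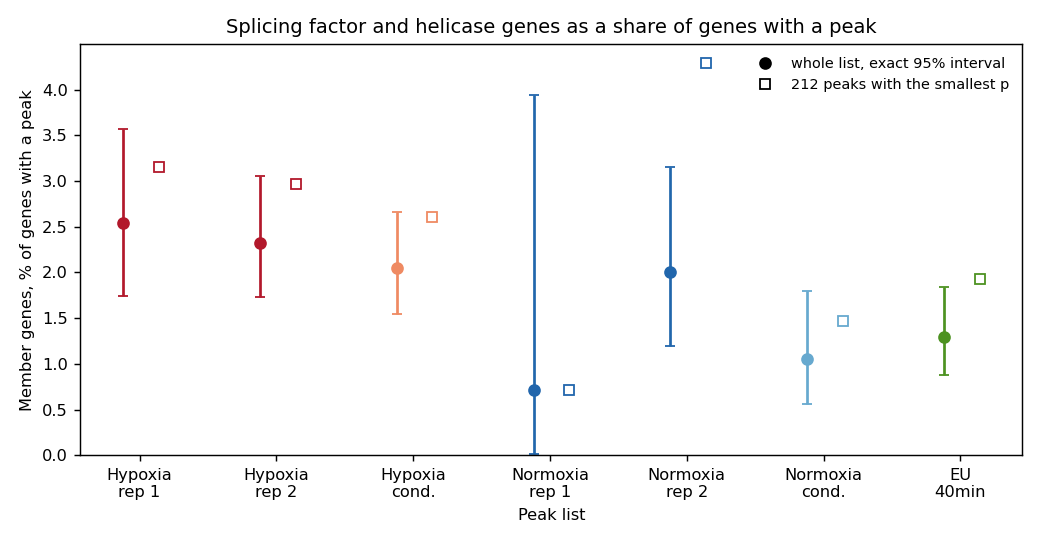
The splicing factor and helicase genes as a percentage of all genes with a peak, for each list (x axis); filled points are whole lists with exact 95% binomial intervals, and open squares are the 212 peaks of smallest p. Whole-list shares lie between 0.719% and 2.54%, and normoxia replicate 2 gives the highest open square, 4.29%.

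The genes carried 94 and 188 peaks in the hypoxia libraries, against 1 and 30 in the normoxia libraries, a fold of 24.3 between geometric means (exact permutation p = 0.333, n = 2 each), and the log2 difference of 4.60 was 2.15 without normoxia replicate 1. Per gene with a peak this was 2.94 and 3.76 peaks in hypoxia, against 1 and 1.67 in normoxia. For all other genes it was 2.27 and 3.06 in hypoxia, against 1.53 and 1.74 in normoxia. The splicing genes thus had more peaks per gene than other genes in both hypoxia libraries. In normoxia the value of replicate 1 rests on 1 gene with 1 peak, and in replicate 2 the splicing genes and other genes differed little. In EU 40min the values were close, 2.13 for the splicing genes and 2.11 for other genes.

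**Figure D2:**
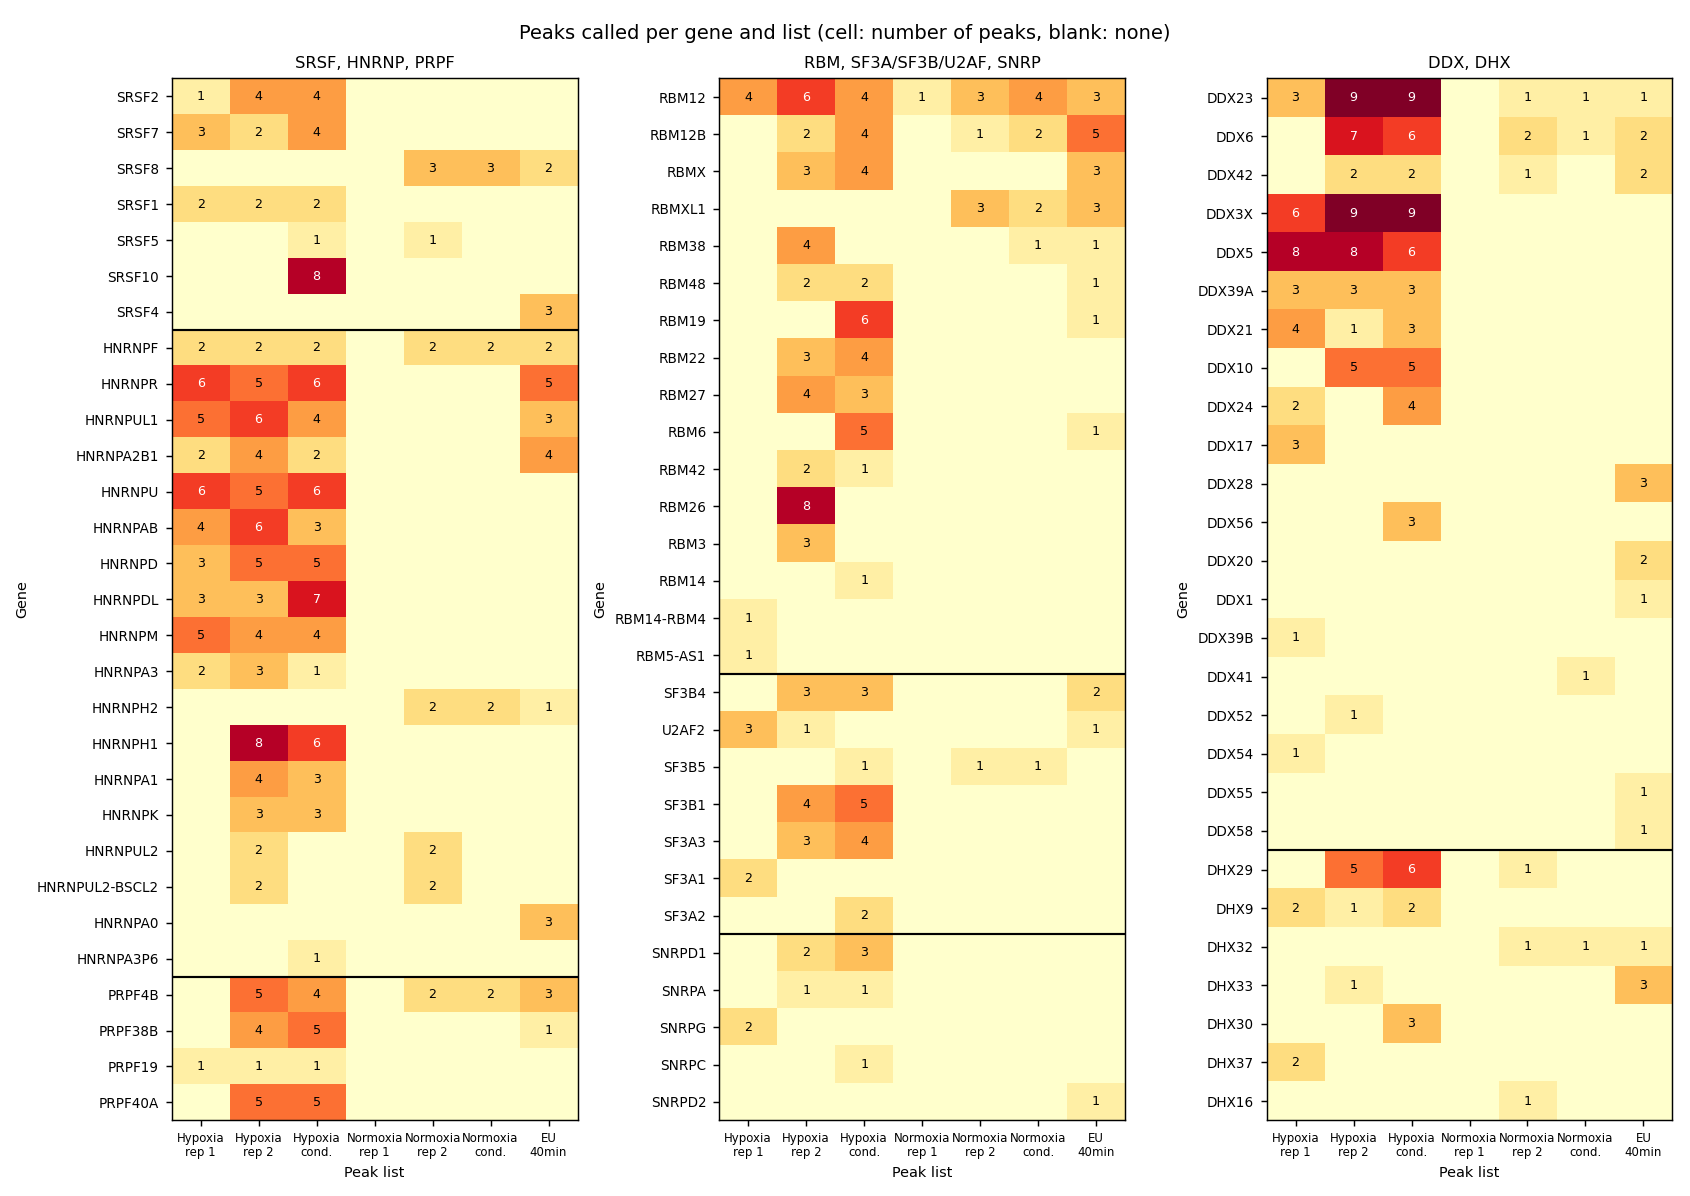
Number of peaks of each described gene (rows, by family) in each of the 7 lists (columns), with darker cells for more peaks. Most genes have cells filled in the hypoxia columns alone, and RBM12 is the gene with a peak in all 7 lists.

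A gene was called hypoxia-only when it had a peak in both hypoxia libraries and in neither normoxia library. This held for 19 of the 67 splicing genes with a peak in any of the 4 libraries (28.4%), beside 15.3% of all 3226 genes with a peak in them. Normoxia-only, by the reverse rule, held for 0 of the 67, beside 0.155% of all genes. Using 1 library as enough, 49 of the 67 (73.1%) had a hypoxia peak and no normoxia peak, beside 69.2% of all genes, so by this looser rule the share lies near the background. A normoxia peak with no hypoxia peak was listed for 7 (10.4%), beside 15.5% of all genes, and peaks in libraries of both conditions for 11 (16.4%), beside 15.4%. In the condition lists, 47 of 60 splicing genes (78.3%) were in the hypoxia list alone, beside 62.8% of all genes, 6 (10%) were in the normoxia list alone, beside 20.3%, and 7 (11.7%) were in both, beside 16.9%. The hypoxia-only count rests on the longer lists: with each library shortened to 212 peaks it was 0, beside 3.13% of all genes, and with the 50% of peaks of smallest p it was 3 (6.82%), beside 9.11%. Without hypoxia replicate 1, so that 1 hypoxia library sufficed, it was 40 (69.0%), beside 63.7%.

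The 19 hypoxia-only genes fell unevenly over the families, a split that was not tested. They were 9 of 16 HNRNP genes with a peak in the 4 libraries, 4 of 14 DDX, 3 of 5 SRSF, 1 of 6 SF3A, SF3B or U2AF, 1 of 4 PRPF, 1 of 6 DHX, 0 of 3 SNRP and 0 of 13 RBM. In 18 of the 19, the exception being U2AF2, at least 1 peak of one hypoxia library overlapped a peak of the other. The same 18 were in the hypoxia condition list, and 0 of the 19 were in the normoxia condition list. Over the 19 genes, 48 of 69 peaks of hypoxia replicate 1 and 48 of 73 peaks of replicate 2 were shared in this sense. The 19 genes were chosen through the libraries of these conditions, which favours such agreement between lists. Its values over all hypoxia-only genes are not given here, so it is no trait of the splicing genes. All 19 had a peak of several blocks in at least 1 hypoxia library, beside 80.1% of the 492 hypoxia-only genes of the whole series, and 14 (73.7%) had one in both, beside 57.1%.

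Among SR proteins, SRSF2, which binds exonic enhancers, had 1 and 4 peaks in the hypoxia libraries and 0 in each normoxia library and in EU 40min. Its hypoxia replicate 1 peak at chr17:76736389-76737077 (hg38, 2 blocks, the authors' p = 8.5e-07) met 2 peaks of replicate 2, at chr17:76736241-76736538 and chr17:76736880-76737077 (the authors' p = 3e-07 for each). SRSF7, an SR protein with a zinc knuckle, had 3 and 2 peaks in hypoxia and 0 in normoxia and EU 40min. Its peaks at chr2:38749568-38750026 had the same ends and 2 blocks in both hypoxia libraries and in the hypoxia condition list. SRSF1, the founding SR protein, had 2 peaks in each hypoxia library, one of which, in both, joined 2 blocks near the gene start. SRSF8 went the other way, with 0 peaks in the hypoxia lists, 2 in EU 40min and 3 in normoxia replicate 2. SRSF4 was listed in EU 40min alone, with 3 peaks.

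SRSF8 arose from a copy of the SRSF2 transcript, and other pairs of related genes were looked at after their values had been seen. Sequence identity within pairs was not computed. RBMX had 0 and 3 peaks in the hypoxia libraries, 3 in EU 40min and 0 in both normoxia libraries, while its retrocopy RBMXL1 had 0 in both hypoxia libraries, 3 in EU 40min, and 0 and 3 in normoxia. HNRNPH1, an hnRNP that binds runs of G, had 0 and 8 peaks in hypoxia and 0 in both normoxia libraries and EU 40min. Its close relative HNRNPH2 had 0 in hypoxia, 1 in EU 40min, and 0 and 2 in normoxia. In each of these pairs 1 gene had no peak named for it in normoxia and the other had none in hypoxia. The pairs were picked with these values seen, so their agreement is no result. Other related genes did not split in this way. RBM12 and RBM12B each had peaks in libraries of both conditions, and HNRNPD and HNRNPDL were both hypoxia-only. No source used here says how reads that match both copies were placed, so the split between copies is uncertain, and 3 of the 5 HNRNPH2 peaks were also overlapped by peaks named for the readthrough gene RPL36A-HNRNPH2. That readthrough gene had 0 and 1 peaks in hypoxia, 1 in EU 40min, and 0 and 1 in normoxia, so the split between HNRNPH1 and HNRNPH2 does not extend to it.

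In hypoxia the hnRNP genes carried 38 and 62 peaks, the most of the 8 families in both libraries, with 18 in EU 40min, and 0 and 8 in normoxia. HNRNPA2B1, an hnRNP that has been described as a nuclear reader of m6A, had 2 and 4 peaks in hypoxia, 4 in EU 40min and 0 in both normoxia libraries. All 4 EU 40min peaks were overlapped by a hypoxia library peak, and 151 bases at chr7:26192224-26192374 were common to both hypoxia libraries, the hypoxia condition list and EU 40min. Its peak with the most covered bases, 700 at chr7:26196455-26197834, had 5 blocks in hypoxia replicate 2 (the authors' p = 0.0014). The peak over its transcription start, printed above, was in hypoxia replicate 2 and EU 40min.

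HNRNPR had 6 and 5 peaks in the hypoxia libraries, 5 in EU 40min and 0 in normoxia, with 4 of the 5 EU 40min peaks overlapped by a hypoxia peak. HNRNPUL1, a relative of the scaffold protein HNRNPU, had 5 and 6 in hypoxia, 3 in EU 40min and 0 in normoxia. HNRNPD, the AU-rich element binding protein AUF1, had 3 and 5 in hypoxia and 0 in EU 40min and normoxia. HNRNPDL had the smallest deposited p of the hypoxia-only genes in hypoxia replicate 1, 1.9e-07, and HNRNPR that in replicate 2, 1.6e-07. HNRNPM had a peak of 6 blocks in hypoxia replicate 2 at chr19:8465361-8473688, the most blocks of any peak of the 85 genes in the libraries.

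HNRNPF, which like HNRNPH1 binds runs of G, was the hnRNP gene found in the most lists. It had 2 peaks in each hypoxia library, 2 in EU 40min, and 0 and 2 in the normoxia libraries. At least 1 peak in each of these libraries with a peak overlapped chr10:43386800-43387834, near the end of the gene, where deposited p-values were 0.00021 and 6.5e-05 in hypoxia, 1.2e-05 in EU 40min and 1.4e-08 in normoxia replicate 2. The second peak of hypoxia replicate 2, chr10:43394675-43396639 with 2 blocks, and that of EU 40min, chr10:43396541-43396639, lay elsewhere and had no counterpart in either normoxia library. HNRNPUL2 and the readthrough transcript HNRNPUL2-BSCL2 carried 4 peaks each over all lists, and each of the 4 overlapped one of the other gene, so they are not independent entries.

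The RBM genes, RNA-recognition-motif proteins of varied function, had 6 and 37 peaks in the hypoxia libraries, 18 in EU 40min, and 1 and 7 in the normoxia libraries. Only 1 and 11 of the hypoxia peaks had several blocks. RBM12 alone was found in all 7 lists, with 4 and 6 peaks in hypoxia, 3 in EU 40min, and 1 and 3 in normoxia. The 249 bases at chr20:35655080-35655328 were covered in 6 of the lists, all but normoxia replicate 1. That library's single splicing-gene peak lay elsewhere in RBM12, at chr20:35649322-35649421 near the gene end, and no hypoxia library peak overlapped it. RBM12B, its neighbour in name and domain structure, had 0 and 2 peaks in hypoxia, 5 in EU 40min, and 0 and 1 in normoxia. RBM3 and RBM26 were listed in hypoxia replicate 2 alone.

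Genes of the U2 particle and U2AF had 5 and 11 peaks in hypoxia, 3 in EU 40min, and 0 and 1 in normoxia, and 3 and 7 of the hypoxia peaks had several blocks. SF3B1, the U2 subunit often mutated in blood cancers, had 0 and 4 peaks in the hypoxia libraries and 0 in EU 40min and normoxia. In hypoxia replicate 2, 3 of its peaks had several blocks, among them chr2:197420536-197423895 with 3 blocks (the authors' p = 4.1e-07), and all 3 had the same ends in the hypoxia condition list. SF3B4 had 0 and 3 peaks in hypoxia, 2 in EU 40min and 0 in normoxia. SF3B5, a small gene, had 0 in both hypoxia libraries and EU 40min, and 0 and 1 in normoxia. U2AF2, the large subunit that reads the polypyrimidine tract, had 3 and 1 peaks in hypoxia that did not overlap each other, 1 in EU 40min and 0 in normoxia. The EU 40min peak, chr19:55654344-55654790, overlapped that of hypoxia replicate 2, chr19:55654394-55654741. Both lie wholly before the RefSeq start of the gene, 55655035. The hypoxia-only call of U2AF2 and its EU 40min entry therefore rest on peaks outside the gene span.

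All 4 PRPF genes had a peak in hypoxia replicate 2 and 1 in hypoxia replicate 1, against 0 and 1 in the normoxia libraries. PRPF4B, a kinase of the spliceosome (now PRP4K), had 0 and 5 peaks in hypoxia, 3 in EU 40min, and 0 and 2 in normoxia, and its site at chr6:4032006-4032055 was common to hypoxia replicate 2, EU 40min and normoxia replicate 2. PRPF19, a ubiquitin ligase of the active spliceosome, had 1 peak in each hypoxia library, of 3 and 4 blocks, and none in EU 40min or normoxia. SNRP genes were sparse, with 2 and 3 peaks in the hypoxia libraries, 1 in EU 40min and 0 in both normoxia libraries. SNRPG was in hypoxia replicate 1 alone, SNRPC in the hypoxia condition list alone and SNRPD2 in EU 40min alone.

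The DEAD-box genes had 32 and 45 peaks in hypoxia, 13 in EU 40min, and 0 and 5 in normoxia. DDX5, a helicase and transcription coregulator, had 8 peaks in each hypoxia library and 0 in EU 40min and normoxia, with 5 and 6 of them shared between the hypoxia libraries. DDX3X, a translation helicase, had 6 and 9 peaks in hypoxia and 0 in EU 40min and normoxia. All 6 of replicate 1 were overlapped by replicate 2, though at chrX:41345451 and at chrX:41348643 by that 1 base only. DDX23, a spliceosomal helicase, was found in 6 lists, with 3 and 9 peaks in hypoxia, 1 in EU 40min, and 0 and 1 in normoxia. Its site at chr12:48830013-48830211, close to the gene end, was the one covered in normoxia as well. DDX6, a decapping and P-body helicase, had 0 and 7 peaks in hypoxia, 2 in EU 40min, and 0 and 2 in normoxia. DDX42, which associates with the U2 particle, had 0 and 2 in hypoxia, 2 in EU 40min, and 0 and 1 in normoxia.

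The DEAH-box genes had 4 and 7 peaks in hypoxia, 4 in EU 40min, and 0 and 3 in normoxia. DHX9, also called RNA helicase A, had 2 and 1 peaks in hypoxia and 0 in EU 40min and normoxia. The shared peak began at chr1:182843321 in both libraries and ended at 182853379 with 3 blocks in replicate 1 and at 182854140 with 4 blocks in replicate 2 (the authors' p = 0.00019 and 0.0021). DHX29, a helicase of translation initiation, had 0 and 5 peaks in hypoxia, 0 in EU 40min, and 0 and 1 in normoxia. DHX32 was listed in normoxia and EU 40min and in no hypoxia list, and DHX16 in normoxia replicate 2 alone.

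**Figure D3:**
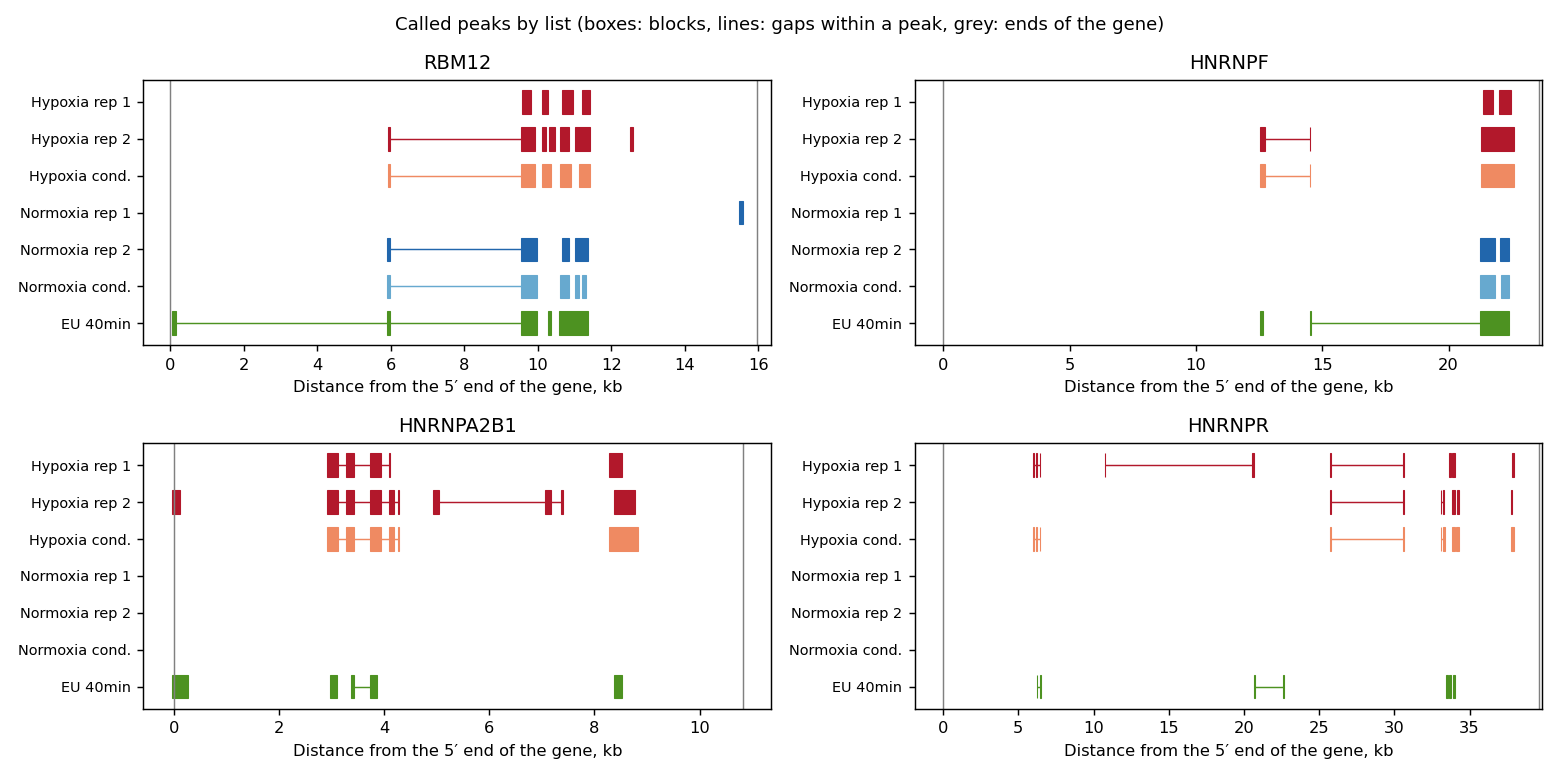
Peaks of RBM12, HNRNPF, HNRNPA2B1 and HNRNPR along each gene (x axis, distance from the 5′ end in kb), with a row per list, blocks as boxes, gaps within a peak as lines and the gene's ends in grey. RBM12 and HNRNPF have a site in the hypoxia libraries, normoxia replicate 2 and EU 40min, while HNRNPA2B1 and HNRNPR have peaks in the hypoxia libraries and EU 40min and none in the normoxia lists.

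Peaks of several blocks made up 48.9% (38.5 to 59.5; 46 of 94) and 44.1% (36.9 to 51.6; 83 of 188) of the splicing genes' peaks in the hypoxia libraries, against 0% (0 of 1) and 13.3% (3.76 to 30.7; 4 of 30) in the normoxia libraries. The libraries of the conditions did not overlap, and the means were 46.5% ± 3.39 in hypoxia and 6.67% ± 9.43 in normoxia (SD, n = 2 each; exact permutation p = 0.333). Other genes gave 35.5% and 36.5% in the hypoxia libraries, against 29.9% and 9.85% in the normoxia libraries. The splicing genes' share was above that of other genes in both hypoxia libraries, with the other genes' values below the splicing genes' intervals, while in normoxia replicate 2 the interval covers the value of other genes. In EU 40min it was 27.3% (17.0 to 39.6), beside 19.7% in other genes. Taking only the peak of smallest p of each gene, the share was 65.6% and 54% in hypoxia, against 0% and 11.1% in normoxia. For other genes it was 35.5% and 36.3% in hypoxia, against 26.8% and 9.90% in normoxia. Peaks of a gene share its exon structure, so they are not independent and the intervals cover counting error only.

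**Figure D4:**
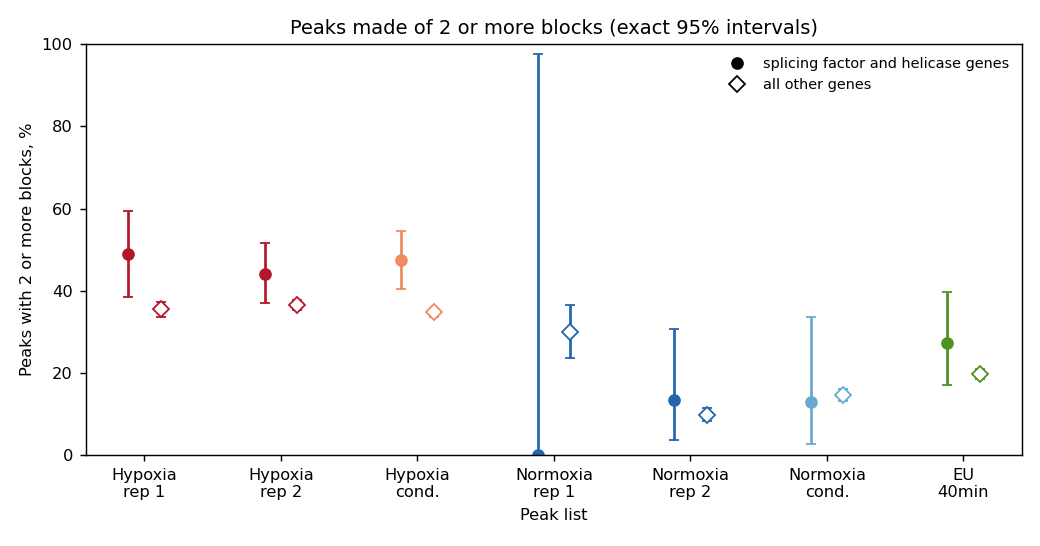
Percentage of peaks made of 2 or more blocks in each list, for the splicing factor and helicase genes (filled circles) and all other genes (open diamonds), with exact 95% binomial intervals. In the hypoxia libraries the filled circles, 48.9% and 44.1%, lie above the diamonds, 35.5% and 36.5%.

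By family, peaks of several blocks were 47.4% of 38 and 51.6% of 62 HNRNP peaks in the hypoxia libraries, 40.6% of 32 and 40% of 45 DDX peaks, and 16.7% of 6 and 29.7% of 37 RBM peaks. The SRSF genes, with 5 of 6 and 3 of 8 such peaks, and the U2 and U2AF genes, with 3 of 5 and 7 of 11, had too few peaks to place among the families. The families were not tested against each other. The median peak width, summed over blocks, was 151 bases in both hypoxia libraries for the splicing genes, and 150 and 151 for other genes. In EU 40min it was 198 for the splicing genes and 199 for other genes. In the normoxia libraries it was 100 (1 peak) and 199.5 for the splicing genes, and 150 in both for other genes, so there the widths differed.

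Position was taken as the middle of the covered bases, in percent of the RefSeq gene span from its 5′ end. For the splicing genes the median was 48.9% and 52.9% in the hypoxia libraries, 62.6% in EU 40min, and 97.2% (1 peak) and 57.3% in the normoxia libraries. The hypoxia and normoxia means of 50.9% ± 2.84 and 77.3% ± 28.2 (SD, n = 2 each; exact permutation p = 0.333) differ mainly through the single peak of normoxia replicate 1. Without that library the difference was -6.45 percentage points. Other genes had medians of 72.4% and 74.6% in hypoxia, 79.5% in EU 40min, and 59.1% and 77.0% in normoxia, so the splicing genes' peaks lay further towards the 5′ end in 4 of the 5 libraries. In the last 10% of the gene span lay 19.1% and 17.0% of the splicing genes' peaks in hypoxia, 19.7% in EU 40min, and 100% (1 of 1) and 16.7% in normoxia. For other genes these shares were 28.4% and 31.4% in hypoxia, 34.3% in EU 40min, and 21.4% and 32.7% in normoxia. With 1 peak per gene the medians were 49.5% and 44.2% for the splicing genes in the hypoxia libraries, and 72.6% and 74.8% for other genes. The gene span includes introns, so these are positions along the gene and not along the mature RNA.

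**Figure D5:**
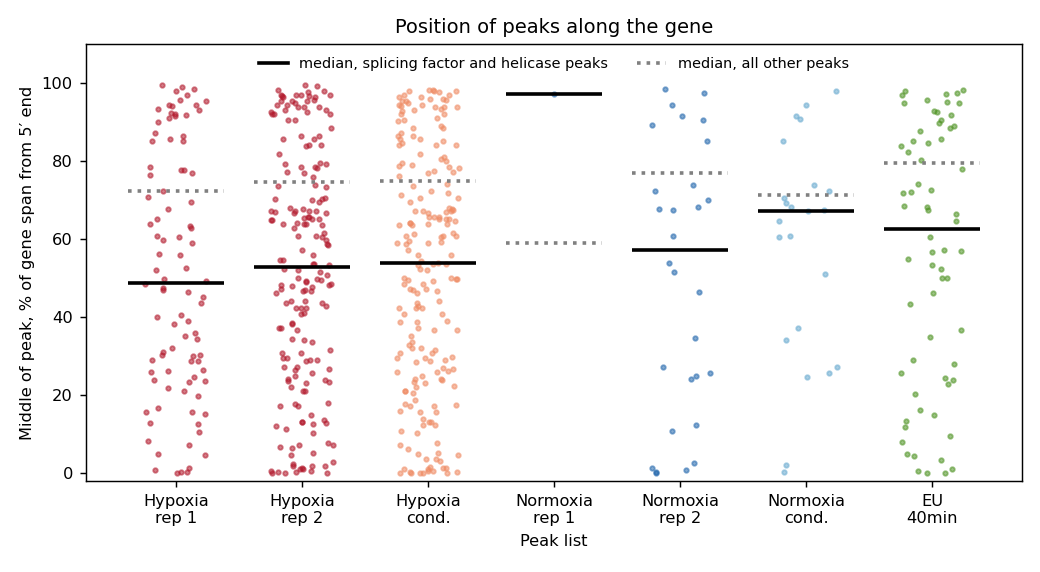
Position of each peak of the splicing factor and helicase genes along the gene (y axis, 0 at the 5′ end and 100 at the 3′ end, in percent of the gene span) for each list, with medians of these genes and of all other genes. The splicing genes' medians of 48.9% and 52.9% in the hypoxia libraries lie below the 72.4% and 74.6% of other genes.

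Shared positions were counted from overlaps of at least 1 base between blocks. Of hypoxia replicate 1 peaks in the splicing genes, 59.6% (49.0 to 69.6; 56 of 94) were overlapped by hypoxia replicate 2, beside 47.0% for other genes. In the 10 described genes with peaks in both conditions, 17 of 18 normoxia library peaks (94.4%) were overlapped by a hypoxia library peak of the same gene, the exception being the RBM12 peak of normoxia replicate 1. In the 485 genes outside the families with peaks in both conditions this held for 68.9% of 950 normoxia library peaks. Of the hypoxia library peaks, 20 of 51 (39.2%) were overlapped by a normoxia peak, beside 44.1% of 1869 in the other genes. Over all splicing genes, with no choice of genes by condition, hypoxia replicate 2 overlapped 56.7% (37.4 to 74.5; 17 of 30) of normoxia replicate 2 peaks, beside 27.5% in other genes. HNRNPUL2 and HNRNPUL2-BSCL2, with 2 overlapped normoxia library peaks each, enter this count and the 17 of 18 under both names, though they are not independent entries. The peaks of the described genes were merged to 296 sites by chaining overlaps over all lists, and 132 of them came from 1 list. Peaks of both hypoxia libraries fell in 49 sites, in 21 genes, but a peak of another list can join peaks that share no base. In HNRNPD the hypoxia condition list joined chr4:82353645-82353744 of replicate 1 and chr4:82353794-82353894 of replicate 2. The 49 sites are therefore more than those where the hypoxia libraries overlap each other. Of those 49 sites, 9 also held a peak of EU 40min and 3 a peak of a normoxia library, by the same chaining.

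EU 40min peaks overlapped the conditions' peaks unequally. They overlapped 13.8% and 14.4% of the splicing genes' peaks in the hypoxia libraries, and 0 of 1 and 63.3% (43.9 to 80.1; 19 of 30) in the normoxia libraries. For other genes these shares were 28.9% and 23.7% in hypoxia and 53.9% in normoxia replicate 2. By gene, an EU 40min peak was listed for 21 of the 67 splicing genes with a peak in the 4 libraries (31.3%), beside 39.9% of all such genes. Of the 19 hypoxia-only genes 4 had one (21.1%), beside 43.5% of all hypoxia-only genes; these were HNRNPA2B1, HNRNPR, HNRNPUL1 and U2AF2. Of the 7 genes with a normoxia and no hypoxia library peak 4 had one (57.1%), beside 50.7%, and of the 11 with peaks in both conditions 7 had one (63.6%), beside 74%. With 1 hypoxia library as enough, 10 of the 49 genes with a hypoxia and no normoxia library peak had one (20.4%), beside 29.9%. The hypoxia-only rule asks for both libraries and the normoxia rule for 1, so their gaps to the background are not alike. None of these gaps was tested.

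Read from the EU 40min list, the hypoxia condition list overlapped 42.4% (30.3 to 55.2; 28 of 66) of its splicing-gene peaks, and the normoxia condition list 21.2% (12.1 to 33.0; 14 of 66). For other genes these were 34.2% and 18.6%. With the hypoxia condition list shortened to the 2285 peaks of smallest p, the length of the normoxia list, its share was 7.58%, and the order of the conditions turned round. A peak in EU 40min and in none of the other 6 lists was found for 8 of the 85 genes (9.41%), beside 17.7% of all 5000. They were HNRNPA0 (3 peaks, the authors' smallest p = 2.8e-10), DDX58 (now RIGI, a sensor of viral RNA), DDX1, DDX20, DDX28, DDX55, SNRPD2 and SRSF4.

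Of the 85 genes, 28 were in 1 list, 20 in 2, 27 in 3, and 10 in more than 3. The genes in 1 list were spread over hypoxia replicate 1 (8), hypoxia replicate 2 (3), the hypoxia condition list (7), EU 40min (8), normoxia replicate 2 (1) and the normoxia condition list (1). Of the 54 splicing genes in the hypoxia condition list, 11 (20.4%) were in neither hypoxia library, beside 26.5% of all genes in that list. For normoxia it was 2 of 13 (15.4%), beside 42.9%.

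A list of 80 other splicing and RNA helicase genes, with names outside these families, was set beside them. Peaks were listed for 15 and 22 of the 80 in the hypoxia libraries, 13 in EU 40min, and 0 and 5 in the normoxia libraries. Hypoxia-only held for 7 of the 31 with a peak in the 4 libraries, beside 492 of all 3226 genes (15.3%). Normoxia-only held for 0 of the 31, beside 0.155% of all genes. The 7 hypoxia-only genes included PTBP3, SFPQ, PNN and SF1, which encodes the branch point binding protein.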

How the data were processed

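MeRIP libraries of V16A cells were read as deposited peak lists with 12 columns: 5 for single libraries and 2 for conditions. The submitters' processing notes name STAR and hg38. How peaks were called and at which threshold, whether inputs were used, the annotation, strandedness and the making of the condition lists are not given in the sources used here. Column 5 was deposited by the authors and read as a p-value, from its range (0 to 0.013); the files do not name it. Of 147 gene and list pairs with several peaks, 98 had peaks that share a p-value. Read depth is not known from the lists; exact (Clopper-Pearson) 95% binomial intervals cover counting error over genes or peaks only.

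All 85 genes, and 4595 of 5000 names (91.9%), matched RefSeq (GRCh38.p14) by symbol and position within 10 kb. Conditions were compared by exact two-sided permutation tests over libraries, which cannot go below 0.333 with 2 against 2. Scripts used Python 3.11.15, pandas 2.3.3, NumPy 2.4.6 and SciPy 1.17.1 and were tested on simulated data. The genes and lists were chosen with earlier results of these data known. Named genes were up to 4 per family by number of lists and then of peaks, up to 3 of each group by smallest p, and a fixed set (SRSF2, SRSF7, HNRNPA2B1, HNRNPC, HNRNPD, HNRNPR, SF3B1, U2AF1, U2AF2, DDX3X, DDX5, DHX9); others are named to account for the counts, or as stated. Replicate numbers were not taken to pair libraries: deviations of replicates with the same number correlated at -0.0978 over 3226 genes, with only 2 pairs. Alternatives were the 50% of peaks of smallest p, equal list lengths, peaks of the median width, 151 bases, or wider, chromosomes 1 to 22 and X, 4 antisense, pseudogene or readthrough names left out, the condition lists, stricter overlap, 1 peak per gene, and leaving out each library.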

Additional observations from a re-analysis of the deposited data

How the results depend on the processing

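Over 8 results and 81 alternatives, 74 were counted as kept, 5 moved the value and 2 reversed it. For the hypoxia-only count, kept means within 1.5 times. For differences between hypoxia and normoxia, gene and peak counts included, it means only the same sign. The log2 difference for genes thus counts as kept at 212 peaks per library, where it fell from 3.24 to 0.5. Kept overlap results lay inside the interval of the reported value. Among the 74 are pairings by replicate, which cannot change a difference of means. No p-value could pass 0.05 in this design, so sides of a threshold say nothing about stability. The number of hypoxia-only genes was 19 as reported, 3 with the 50% of each list of smallest p, 0 at equal library lengths of 212 peaks and 47 in the condition lists, and 19 to 40 when leaving out each library; shorter lists leave fewer genes to be listed in both hypoxia libraries. The share of hypoxia replicate 1 peaks overlapped by replicate 2 was 59.6% as reported and 8.70% (4 of 46) with the 50% of smallest p. The difference between the hypoxia and normoxia condition lists in the share of EU 40min peaks they overlapped, 21.2 percentage points as reported, was -6.25 with the 50% of smallest p and -13.6 with equal list lengths; the cause was not tested.

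Leaving out each library gave log2 differences of 1.15 to 5.32 for genes and 2.15 to 7.05 for peaks, and differences of 0.427 to 1.71 percentage points for the share of genes, 33.2 to 46.5 for peaks of several blocks and -46.3 to -6.45 for position. With libraries shortened to 212 peaks these 5 differences were 0.5, 1.85, 0.557, 33.8 and -24.2. At that length only the share of peaks of several blocks kept the libraries of the conditions apart. These values rest on 9 and 13 splicing-gene peaks in hypoxia and 1 and 9 in normoxia. Libraries of whole length, paired by replicate number, gave 3.24, 4.60, 1.07, 39.9 and -26.4 for the same 5 differences. The exact paired p was 0.5 for each, the smallest that 2 pairs can give. Crossed pairs, chosen after seeing the data, gave 3.24 for genes (exact paired p = 0.5). A mean of paired differences always equals the difference of the means, so no pairing could move these values. The paired alternatives therefore say nothing about stability. The 2 libraries per condition, the single member peak of normoxia replicate 1 and the unknown depth limit all comparisons.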
